A study of Sus scrofa with 4 samples.

Results

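The genes described here are the heat-shock proteins and the chaperones of the endoplasmic reticulum (ER), together with their co-chaperones, folding enzymes and stress regulators. They were chosen by gene symbol, as the heat-shock proteins (HSP), J-proteins (DNAJ), protein disulfide isomerases (PDIA, ERP), calreticulin and calnexin, subunits of the chaperonin TRiC (TCP1, CCT), BAG co-chaperones, FKBP prolyl isomerases, and the regulators ATF4, ATF6B, XBP1 and DDIT3. The mitochondrial chaperonin genes HSPD1 and HSPE1 were left out. Of the 4381 gene symbols in the counts table, 48 matched and 46 remained as members. By the known place of the protein, 13 members belong to folding in the ER, 4 to the signalling of the unfolded protein response, 23 to the cytosol and nucleus, 5 to TRiC and 1 to mitochondria. HSPA5 (BiP), P4HB, ATF6, ERN1, CCT4, CCT6A, CCT6B and CCT8 were not among the symbols of the counts table. They could therefore not be analysed here, and statements on the ER and its stress response leave them out.

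The RNA came from porcine oocytes at the M II stage. Cumulus-oocyte complexes from abattoir ovaries were matured in vitro either without the inhibitor (control) or with SIRT6-IN-1, which enters cells and inhibits the deacetylase SIRT6 (SIRT6-inhibited), and each group had 2 libraries. SIRT6-IN-1 was dissolved in DMSO, and the methods do not say whether control medium received DMSO. The study's methods give a number of oocytes for each group, but not how many went into each library or how many animals they came from. The comparison asks which chaperone transcripts differ when SIRT6 activity is inhibited during maturation.

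Secreted and membrane proteins fold in the ER, where BiP and the HSP90-type chaperone GRP94 hold unfolded chains, calnexin and calreticulin retain glycoproteins, and protein disulfide isomerases form and rearrange disulfide bonds. Cytosolic proteins are served by a separate set, in which HSP90 and HSP70 proteins work with J-proteins and the ring-shaped chaperonin TRiC folds actin and tubulin. In growing oocytes the ER route makes the zona pellucida glycoproteins and secreted growth factors, and transcription is largely silent by M II, so that transcript levels then also reflect the storage and decay of maternal mRNA.

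The counts of all listed genes summed to 4646129 and 3405960 in control 1 and 2, and 3239200 and 4972602 in SIRT6-inhibited 1 and 2. The members took 2.77% and 2.90% of these counts in the controls and 2.83% and 2.70% after SIRT6 inhibition, so the summed share of the members lay in a narrow range. Between 39 and 43 members had at least 1 count in a library. Levels are given as normalized CPM, that is, counts (CPM) relative to library totals that were first scaled by edgeR's TMM factors. The floor of 3 counts was between 0.625 and 0.932 normalized CPM, and like other counting limits it ignores that amplified reads can share 1 molecule, so it covers counting error only. Nothing says that the libraries of a group came from separate animals or cultures, so the p-values measure only the spread between these libraries, which may be technical.

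The labelled cell type was checked against its markers. All 13 oocyte markers listed in the table had counts, and their summed level was 78418 and 79942 normalized CPM in the control against 77680 and 79004 in the SIRT6-inhibited libraries, with the nuclear import receptor gene KPNA7 the most counted. Markers of cumulus and granulosa cells summed to 137 and 181 normalized CPM in the control against 80.2 and 186 in the SIRT6-inhibited libraries. VCAN was the most counted of these, and 5 of the 16 in the table (TNFAIP6, FSHR, AMH, LHCGR and AREG) had 0 counts in every library. PTGS2, the prostaglandin synthase of expanding cumulus, had 22 and 12 control counts and 0 counts in both SIRT6-inhibited libraries. It passed the low-count filter only through the controls, which fixed its direction. INHBA, an inhibin subunit gene named after its values were seen, had 34.8 and 26.7 normalized CPM in the control against 19.3 and 21.2 in the SIRT6-inhibited libraries, lower without overlap. CYP11A1, a steroid synthesis gene also named after its values were seen, went the other way without overlap, with 0 and 9 control counts against 13 and 56. Of 5 tested cumulus and granulosa markers, PTGS2 included, 0 had an unadjusted p-value under 0.05 with the edgeR quasi-likelihood test, and the median log2 fold change was -0.60. The groups did not overlap for 3 of the 5, 2 lower and 1 higher, beside 40.1% of all tested genes. The part of these markers in the chaperone results was not tested.

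Of the 46 members, 42 passed the filter on low counts and were tested, and 4 were not. DNAJC5B and HSPB7 had 0 counts everywhere, FKBPL had 7 counts in control 1 alone, and HSPA1L had 2 counts in control 2 alone. At least 10 counts in every library were found for 38 members. Among the tested members, 4 had an unadjusted p-value under 0.05 with the edgeR quasi-likelihood test, which is 9.52% beside 9.05% of all 2387 tested genes. The share among the members was thus close to the background. HSP90B1, PDIA3 and CANX were lower in SIRT6-inhibited oocytes and PDIA4 was higher, against a background of 5.99% lower and 3.06% higher. All 4 belong to the ER, where they are 4 of 13 tested genes. Such a p-value was found for 0 of 19 tested cytosolic genes, 0 of 5 TRiC genes and 0 of 4 regulators. This split was not tested and did not hold under every processing choice. HSP90AA1 also had such a p-value without the low-count filter, HSP70.2 with library totals only, and HSP70.2 and CCT5 in limma-voom. Without SIRT6-inhibited 1, cytosolic and TRiC members were among those under 0.05, and PDIA4 was not. After Benjamini-Hochberg adjustment in edgeR's test 0 members had a p-value under 0.05, and the background was also 0%. DESeq2's Wald test gave 2 members (HSP90B1 and PDIA3) and 37 genes of the whole table an adjusted p-value under 0.05, and limma-voom gave 0. In edgeR's own test the adjusted count moved to 2 members (HSP90B1 and PDIA3) and 43 genes without the low-count filter, and to 1 member (HSP90B1) and 2 genes with at least 10 counts required in every library. It was 2 members (HSP90B1 and PDIA3) and 77 genes without SIRT6-inhibited 1, 1 member (HSP90B1) and 17 genes without SIRT6-inhibited 2, and 0 without control 1 and without control 2.

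**Figure D1:**
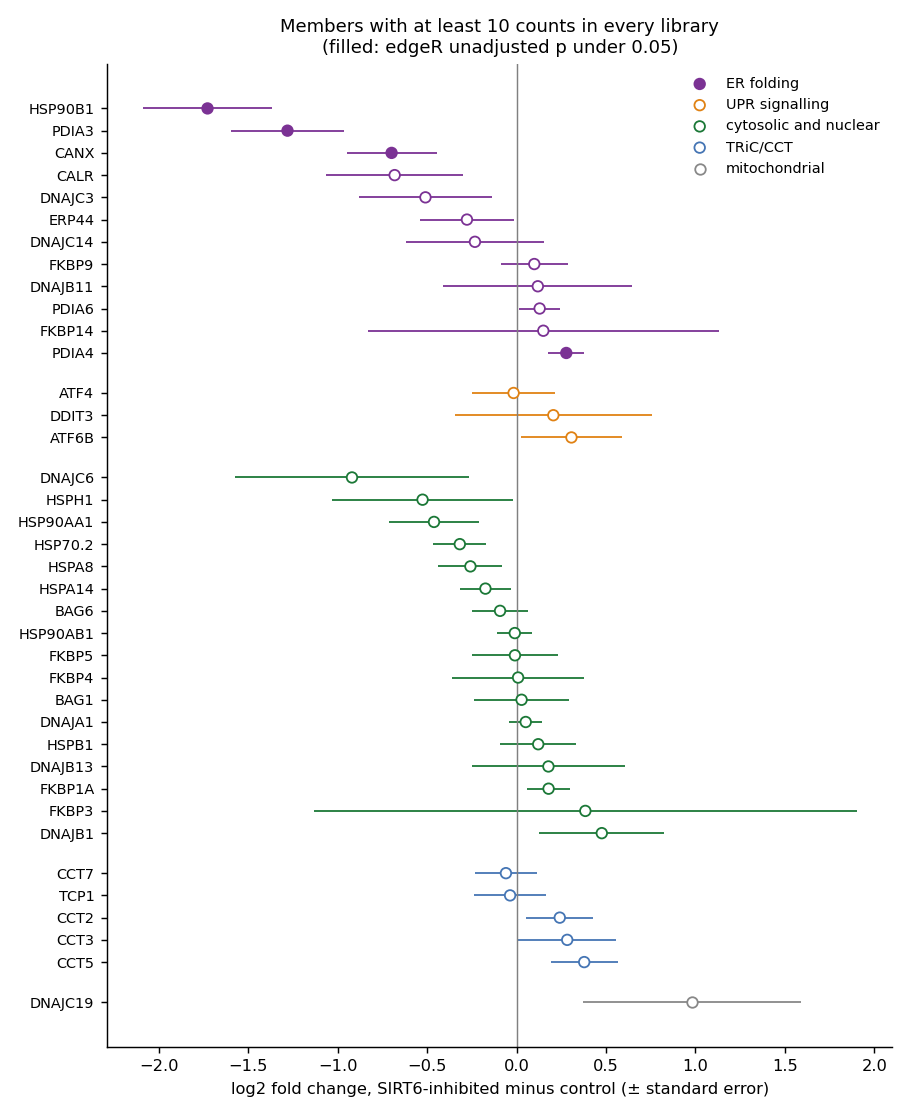
Log2 fold change (SIRT6-inhibited minus control) of the 38 members with at least 10 counts in every library, ordered by place of the protein, with horizontal bars for ± 1 standard error from edgeR and filled points for an unadjusted p-value under 0.05. HSP90B1 at -1.73 and PDIA3 at -1.28 lie farthest to the left, and PDIA4 at 0.28 is the filled point to the right of 0.

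HSP90B1 encodes GRP94, the HSP90 protein of the ER lumen, which folds a small set of clients that includes integrins and Toll-like receptors. It had 1896 and 2566 counts in control 1 and 2 and 705 and 591 counts in SIRT6-inhibited 1 and 2, or 409 and 722 against 219 and 123 normalized CPM. Both control libraries were above both SIRT6-inhibited libraries, with control 2 highest and SIRT6-inhibited 2 lowest. The mean level was 3.31-fold lower in SIRT6-inhibited oocytes, the log2 fold change being -1.73 with a standard error of 0.36 and an unadjusted p-value of 0.00234 (edgeR quasi-likelihood test, Benjamini-Hochberg adjusted p = 0.460). This p-value was number 10 from the smallest among all tested genes. The libraries of each group themselves differed, by 1.76-fold between control 2 and control 1 and by 1.78-fold between SIRT6-inhibited 1 and SIRT6-inhibited 2, while the nearest libraries of the 2 groups, control 1 and SIRT6-inhibited 1, differed by 1.87-fold. A lower number of oocytes with the transcript and less transcript per oocyte cannot be told apart in these bulk libraries. With 2 libraries in each group, the smallest p-value of an exact permutation test is 0.333, and none was run on single genes.

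PDIA3 encodes ERp57, the disulfide isomerase that binds calnexin and calreticulin and acts on glycoproteins. Its level was 262 and 437 normalized CPM in control 1 and 2 and 172 and 116 in SIRT6-inhibited 1 and 2. The order of the libraries was that of HSP90B1, and the groups did not overlap. The log2 fold change was -1.28 with a standard error of 0.32 and an unadjusted p-value of 0.00538 (edgeR quasi-likelihood test, Benjamini-Hochberg adjusted p = 0.460). Without control 2 the value was -0.87 and the unadjusted p-value, 0.0510, was no longer under 0.05.

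The lectin chaperones that PDIA3 works with were measured too. CANX encodes calnexin, the membrane-bound lectin of this cycle, and had 185 and 267 normalized CPM in the control libraries against 139 in each SIRT6-inhibited library. The SIRT6-inhibited libraries were nearly equal and lay below both controls. Its log2 fold change was -0.70 with a standard error of 0.25 and an unadjusted p-value of 0.0288 (edgeR quasi-likelihood test, Benjamini-Hochberg adjusted p = 0.505). Without control 2 it was -0.41 with an unadjusted p-value of 0.228. CALR encodes calreticulin, the soluble counterpart of calnexin, and had 129 and 263 normalized CPM in the control against 145 and 99.1 in the SIRT6-inhibited libraries. Control 1 lay below SIRT6-inhibited 1, so the groups overlapped. The log2 fold change of CALR was -0.68 with a standard error of 0.38, and the difference was not detectable (edgeR quasi-likelihood test, Benjamini-Hochberg adjusted p = 0.684). It was -1.11 without control 1 and -0.98 without SIRT6-inhibited 1, both with an unadjusted p-value under 0.05, but -0.08 without control 2 and -0.43 without SIRT6-inhibited 2, with unadjusted p-values of 0.841 and 0.245. The unadjusted p-value was also under 0.05 with no low-count filter.

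PDIA4 and PDIA6, the other PDIA genes measured, did not share the lower level of PDIA3. PDIA4 encodes ERp72, and its level was 4039 and 3695 normalized CPM in control 1 and 2 and 4859 and 4516 in SIRT6-inhibited 1 and 2. Both SIRT6-inhibited libraries were above both controls. The log2 fold change was 0.28 with a standard error of 0.10 and an unadjusted p-value of 0.0307 (edgeR quasi-likelihood test, Benjamini-Hochberg adjusted p = 0.510). The value was 0.21 without control 2, 0.22 without SIRT6-inhibited 1 and 0.33 without SIRT6-inhibited 2. In each of these cases the unadjusted p-value was no longer under 0.05. PDIA6, which encodes an isomerase found with BiP, had 2459 and 2480.4 normalized CPM in the control against 2500.4 and 2899 in the SIRT6-inhibited libraries. The groups did not overlap, but 3 of the 4 libraries were close together and SIRT6-inhibited 2 stood above them. Its log2 fold change was 0.13 with a standard error of 0.11 (edgeR quasi-likelihood test, Benjamini-Hochberg adjusted p = 0.906).

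**Figure D2:**
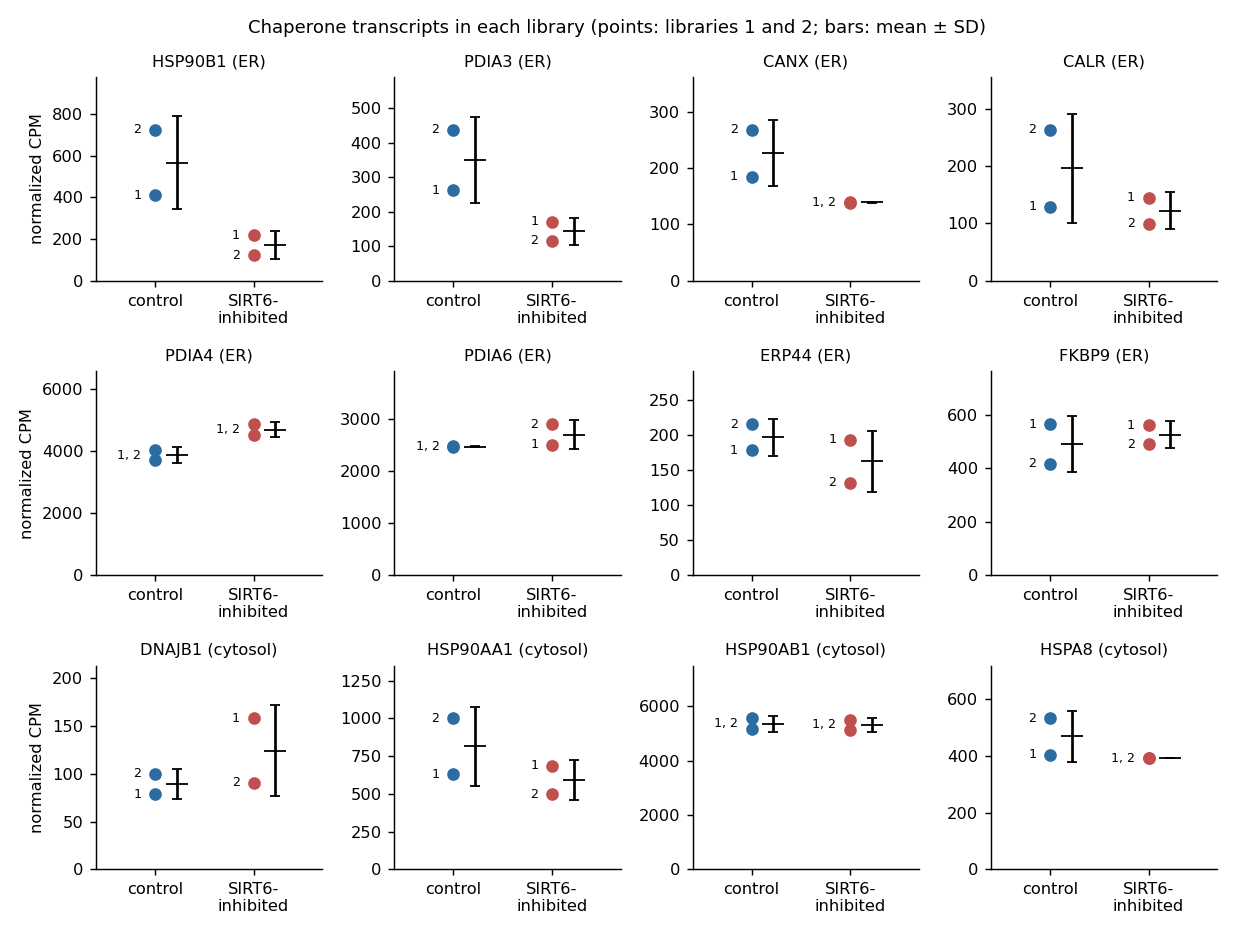
Normalized CPM (vertical axes, each from 0) of 8 ER and 4 cytosolic chaperone genes in the control and SIRT6-inhibited groups, with a point for each library and the mean ± SD (n = 2) beside it. The groups are apart for HSP90B1 (409 and 722 against 219 and 123), while HSP90AB1 lies between 5124 and 5547 in all 4 libraries.

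The remaining 7 ER members were co-chaperones, prolyl isomerases and the retention factor ERp44. FKBP9, the most counted of them and an ER prolyl isomerase, had 565 and 417 normalized CPM in the control against 562 and 490.5 in the SIRT6-inhibited libraries. The groups overlapped, and the log2 fold change was 0.10 with a standard error of 0.19. It was -0.11 without control 2 and -0.0023 without SIRT6-inhibited 1. The other 6 genes were named after their values were seen. DNAJB11, a BiP co-chaperone (log2 fold change 0.12), FKBP14 (0.15) and DNAJC14 (-0.23) had overlapping groups. DNAJC3, which encodes the BiP co-chaperone p58IPK, had 74.7 and 67.6 normalized CPM in the control against 40.4 and 59.4 in the SIRT6-inhibited libraries, with no overlap (log2 fold change -0.51, standard error 0.37). ERP44, whose product retains client proteins in the early secretory pathway, had 178 and 215 in the control against 193 and 131 normalized CPM in the SIRT6-inhibited libraries, with overlap and a log2 fold change of -0.28. FKBP10, which encodes a prolyl isomerase of collagen folding, had 19 and 18 control counts and 0 counts in both SIRT6-inhibited libraries. Set against the floor of 3 counts in each library, its level was at least 5.89-fold lower in SIRT6-inhibited oocytes. FKBP10 passed the filter on low counts only through the control libraries, so its direction was fixed by the filter and no test is given for it.

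Over the 13 ER members the median log2 fold change was -0.28, which is the value of ERP44, with 8 lower and 5 higher. Over all 2387 tested genes the median was -0.04, with 1261 lower and 1126 higher. On a log2 scale the median level of the ER members varied between libraries of a group with a pooled SD of 0.32. That spread is larger than the ER median fold change. The ER counts include FKBP10, whose direction the filter fixed. The ER median is the same with FKBP10 at its bound. The median over the 13 was -0.11 without control 2 and -0.43 without SIRT6-inhibited 2. Over the 12 ER members with at least 10 counts in every library, fitted on such genes alone, the median was -0.25. Groups were apart, without overlap, for 7 of the 13, of which 5 were lower and 2 higher. The 5 lower were HSP90B1, PDIA3, CANX, DNAJC3 and FKBP10, where for FKBP10 the filter fixed the outcome. PDIA4 and PDIA6 were the 2 higher. For all 42 tested members the count without overlap was 16 (38.1%), beside 40.1% of all tested genes. Of these 16, 10 were lower, FKBP10 included (background 22.2%), and 6 higher (background 17.9%). The summed level of the ER members was 8408 and 8735 normalized CPM in the control against 8980 and 8686 in the SIRT6-inhibited libraries, so the sum overlapped between the groups while HSP90B1, PDIA3 and CANX did not. PDIA4 and PDIA6 held most of the counts in this sum.

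The regulators of the unfolded protein response showed overlapping groups. ATF4, the transcription factor translated when eIF2α is phosphorylated, had 282 and 388 normalized CPM in the control against 284 and 377 in the SIRT6-inhibited libraries. In both groups library 2 was the higher, and the log2 fold change was -0.02 with a standard error of 0.23. DDIT3, which encodes CHOP, a factor induced by lasting ER stress, had 25.7 and 39.7 against 29.2 and 46.03 normalized CPM. Here too library 2 was the higher in both groups, and the difference was not detectable (edgeR quasi-likelihood test, Benjamini-Hochberg adjusted p = 0.989). XBP1, whose mRNA is spliced by the stress sensor IRE1, had 0 and 18 counts in the control against 21 and 0 in the SIRT6-inhibited libraries, which is too few to compare. ATF6B, named after its values were seen, encodes a relative of the stress sensor ATF6 and had 115 normalized CPM in control 1 and 187 in each of the other libraries. For the 4 regulators the median log2 fold change was 0.26, and 0 had an unadjusted p-value under 0.05. Splicing of XBP1 and cleavage of ATF6 proteins were not measured.

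DNAJB1 encodes HSP40, the J-protein that brings clients to cytosolic HSP70 and is induced by heat shock. Its level was 78.6 and 100.2 normalized CPM in control 1 and 2 and 158 and 90.8 in SIRT6-inhibited 1 and 2. SIRT6-inhibited 1 was the high library, and SIRT6-inhibited 2 lay between the controls. The log2 fold change was 0.48 with a standard error of 0.35 (edgeR quasi-likelihood test, Benjamini-Hochberg adjusted p = 0.834). The value rested on SIRT6-inhibited 1. Without that library it was 0.02, and without SIRT6-inhibited 2 it was 0.82 with an unadjusted p-value of 0.0335.

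HSP90B1 and PDIA3 were set against DNAJB1 within each library, which removes the library's scaling. These ratios of counts are not corrected for transcript length, so only their change between libraries is read. HSP90B1 had 5.21 and 7.21 counts for each DNAJB1 count in control 1 and 2 and 1.39 and 1.36 in SIRT6-inhibited 1 and 2. The SIRT6-inhibited libraries were nearly equal and lay below both controls, and the mean ratio was 4.53 times as high in the controls. Both genes were higher in SIRT6-inhibited 1 than in SIRT6-inhibited 2. HSP90B1 had 219 and 123 normalized CPM there and DNAJB1 158 and 90.8, so the near equality belongs to the ratio alone. By itself HSP90B1 was 3.31-fold lower, and the larger ratio includes the high DNAJB1 level of SIRT6-inhibited 1. PDIA3 had 3.34 and 4.37 counts for each DNAJB1 count in the control against 1.09 and 1.28 in the SIRT6-inhibited libraries. The controls were again both higher, by 3.26 times in the mean. HSP90B1 and PDIA3 were chosen for this comparison with their lower levels known, so these ratios are a description without a test.

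The comparison was widened to the cytosolic relatives of the same protein families. HSP90AB1 encodes the constitutive cytosolic HSP90 and had 5547 and 5144 normalized CPM in the control against 5489.8 and 5124 in the SIRT6-inhibited libraries. The 4 libraries lay close together, and the log2 fold change was -0.01 with a standard error of 0.10 (edgeR quasi-likelihood test, Benjamini-Hochberg adjusted p = 0.992). Its sign turned under RLE and upper-quartile scaling. The ratio of HSP90B1 to HSP90AB1 counts was 0.0738 and 0.140 in the control against 0.0399 and 0.0240 in the SIRT6-inhibited libraries, again with no overlap. HSP90AA1 encodes the inducible cytosolic HSP90 and had 629.6 and 999 normalized CPM in the control against 685 and 498 in the SIRT6-inhibited libraries. SIRT6-inhibited 1 lay above control 1, so the groups overlapped. Its log2 fold change was -0.46 with a standard error of 0.25 (edgeR quasi-likelihood test, Benjamini-Hochberg adjusted p = 0.662). It was -0.76 without control 1 and -0.71 without SIRT6-inhibited 1, both with an unadjusted p-value under 0.05, but -0.09 without control 2 and -0.25 without SIRT6-inhibited 2, with unadjusted p-values of 0.710 and 0.306. Its unadjusted p-value was also under 0.05 with no low-count filter and with at least 10 counts required in every library. HSP90AA1 and HSP90AB1 are similar in sequence, and reads that both could take make their counts uncertain.

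**Figure D3:**
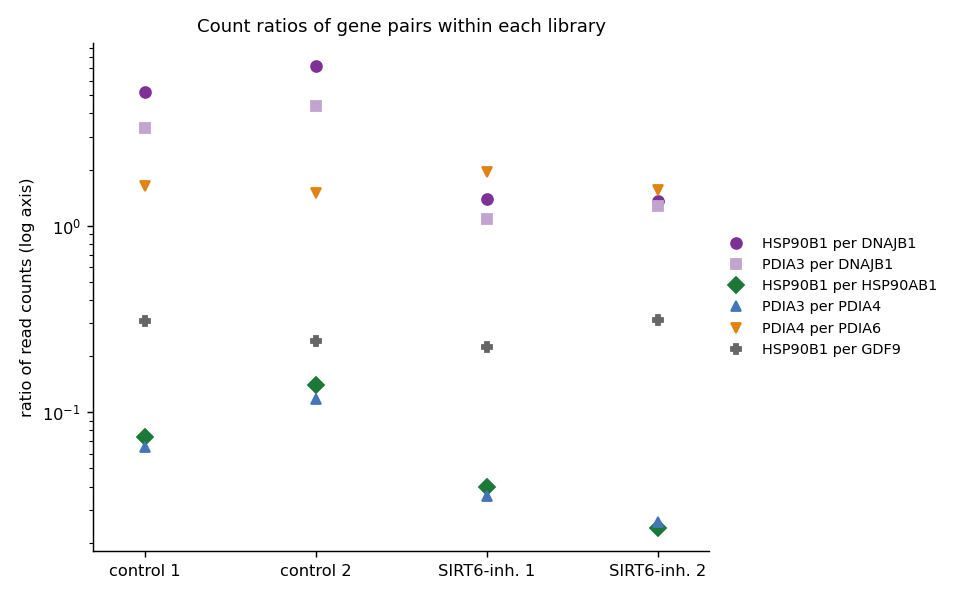
Ratio of the read counts of 6 gene pairs (vertical log axis) in each of the 4 libraries, without correction for transcript length. HSP90B1 per DNAJB1 was 5.21 and 7.21 in the control against 1.39 and 1.36 in the SIRT6-inhibited libraries, while PDIA4 per PDIA6 and HSP90B1 per GDF9 overlapped between the groups.

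Among the HSP70 proteins, HSPA8, the constitutive HSC70, had 405 and 532 normalized CPM in the control against 391 and 392 in the SIRT6-inhibited libraries. Both SIRT6-inhibited libraries lay just below control 1, and control 2 stood above the rest. The log2 fold change was -0.26 with a standard error of 0.18 (edgeR quasi-likelihood test, Benjamini-Hochberg adjusted p = 0.806). HSP70.2, which RefSeq lists with the names of the heat-inducible HSPA1A and HSPA1B as synonyms, had 589 and 634 against 533 and 448 normalized CPM. The groups did not overlap, with a log2 fold change of -0.32, a standard error of 0.15 and an unadjusted p-value of 0.0717 (edgeR quasi-likelihood test, Benjamini-Hochberg adjusted p = 0.573). Its unadjusted p-value was under 0.05 with library totals only and in limma-voom. HSPA14, a ribosome-associated HSP70 relative, had 515 and 499 normalized CPM in the control against 425 and 473 in the SIRT6-inhibited libraries, a log2 fold change of -0.17 with no overlap. The counts of HSPA8, HSP70.2 and the other HSP70 genes are uncertain where near-identical copies share reads.

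DNAJA1, the most counted member, encodes the J-protein partner of HSC70. It had 7230.5 and 6618 normalized CPM in the control against 7069.7 and 7274 in the SIRT6-inhibited libraries. The groups overlapped, with a log2 fold change of 0.05 and a standard error of 0.09 (edgeR quasi-likelihood test, Benjamini-Hochberg adjusted p = 0.980), and the sign turned with library totals only. FKBP1A, which encodes the FK506-binding protein FKBP12, had 1496 and 1294 normalized CPM in the control against 1559 and 1598 in the SIRT6-inhibited libraries. Both SIRT6-inhibited libraries were higher, and the log2 fold change was 0.18 with a standard error of 0.12. The other 11 tested cytosolic members were named after their values were seen. DNAJC6, which encodes auxilin, had 38.6 and 26.5 normalized CPM in the control against 17.1 and 17.3 in the SIRT6-inhibited libraries. It was lower without overlap, with a log2 fold change of -0.92 and a standard error of 0.65. HSPH1, the HSP110 exchange factor of HSP70, had 52.9 and 84.7 against 66.2 and 29.6 normalized CPM, with overlap and a log2 fold change of -0.53. The co-chaperone BAG6 was lower without overlap at -0.09, and the prolyl isomerase FKBP3, with between 16 and 28 counts in a library, was higher without overlap at 0.38 with a standard error of 1.52. Groups overlapped for HSPB1, BAG1, FKBP4, FKBP5 and DNAJB13, between -0.01 and 0.18, and for DNAJA4 (-1.30) and HSPA6 (0.12), which had 0 counts in 1 library each.

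Over the 19 tested cytosolic members the median log2 fold change was -0.01, and it was 0.01 under RLE scaling, -0.08 in limma-voom, -0.11 without control 1 and -0.14 without SIRT6-inhibited 2. There were 10 lower and 9 higher, from -1.30 to 0.48. Groups did not overlap for 7 of the 19 (36.8%), beside 40.1% of all tested genes, and of these 5 were lower (background 22.2%) and 2 higher (background 17.9%). The summed level was 17751 and 17155 normalized CPM in the control against 17634 and 17121 in the SIRT6-inhibited libraries. The difference between the ER and the cytosolic medians was not tested, and without control 2 they were closer, at -0.11 and -0.05.

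TRiC is a ring complex of related subunits, of which 5 were measured. CCT5 had 338 and 381 normalized CPM in the control against 402 and 531 in the SIRT6-inhibited libraries. Both SIRT6-inhibited libraries were higher, with a log2 fold change of 0.38, a standard error of 0.19 and an unadjusted p-value of 0.0872 (edgeR quasi-likelihood test, Benjamini-Hochberg adjusted p = 0.613). It was 0.56 with an unadjusted p-value of 0.0220 without SIRT6-inhibited 1 and 0.16 with an unadjusted p-value of 0.528 without SIRT6-inhibited 2. In limma-voom the unadjusted p-value was 0.0455. CCT2 had 233 and 222 against 288 and 249 normalized CPM, also without overlap, and a log2 fold change of 0.24. CCT3 (0.28), TCP1 (-0.04) and CCT7 (-0.06) had overlapping groups. The median over the 5 subunits was 0.24, and the subunits of the complex, which are needed in equal number, did not all have the same direction. The mitochondrial member DNAJC19, named after its values were seen and a J-protein of protein import, had 30.01 and 20.3 normalized CPM in the control against 29.2 and 70.0 in the SIRT6-inhibited libraries, where SIRT6-inhibited 2 alone was high.

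Several members also shared an order of the libraries within the groups. Control 2 was the highest and SIRT6-inhibited 2 the lowest library for 10 of the 42 tested members (23.8%), beside 10.6% of all tested genes. They were HSP90B1, PDIA3, CANX, CALR, ERP44 and DNAJC14 among the 13 ER members, and HSP90AA1, HSP70.2, HSPH1 and DNAJA4 among the 19 cytosolic ones. Control 2 exceeded control 1 by 1.67-fold for PDIA3, 1.45-fold for CANX, 2.04-fold for CALR and 1.59-fold for HSP90AA1. For PDIA4 the ratio of these libraries was 0.915 and for PDIA6 it was 1.01. Control 2 had a total of 3405960 counts and the largest number of detected genes, 2689, beside 2411 in control 1, 2277 in SIRT6-inhibited 1 and 2320 in SIRT6-inhibited 2. The part of depth and of these libraries in the result was not tested.

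**Figure D4:**
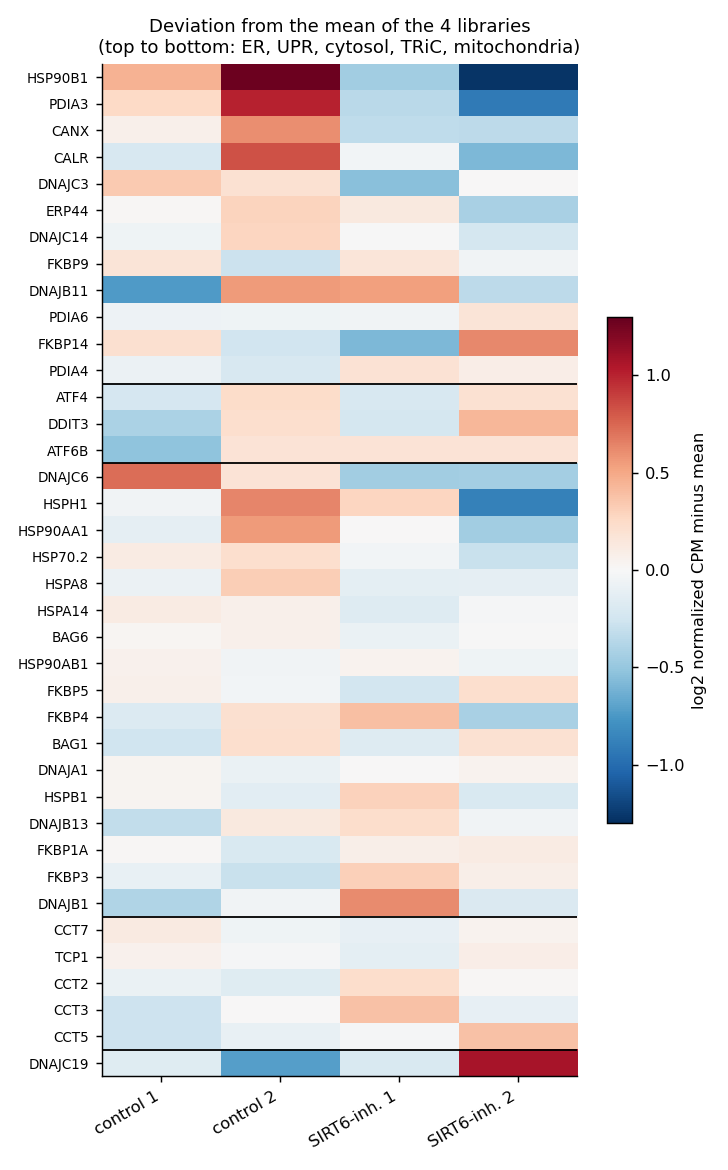
Log2 normalized CPM of each of the 38 members with at least 10 counts in every library, minus its mean over the 4 libraries (colour, red above and blue below), with libraries in columns and black lines between the places of the proteins. The top genes HSP90B1 and PDIA3 are red in both controls and darkest in control 2, and blue in both SIRT6-inhibited libraries, while HSP90AB1 and DNAJA1 are pale throughout.

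Control 2 was also the highest and SIRT6-inhibited 2 the lowest library for 4 of the 13 tested oocyte markers, beside 10.6% of all tested genes. These were GDF9, ZP2 and, named after their values were seen, ZP3 and NOBOX. ZP3, another zona pellucida gene, had 542 and 1275 normalized CPM in the control against 645 and 241 in the SIRT6-inhibited libraries, with overlap. GDF9, the growth factor secreted by the oocyte, had 1323 and 2988 normalized CPM in the control against 978 and 393 in the SIRT6-inhibited libraries. Its groups did not overlap, with a log2 fold change of -1.65 and a standard error of 0.50 (edgeR quasi-likelihood test, Benjamini-Hochberg adjusted p = 0.469). Without control 2 it was -0.95, and the unadjusted p-value was no longer under 0.05. In DESeq2's Wald test it was -1.63 with an unadjusted p-value of 0.05002. It was -2.45 without SIRT6-inhibited 1 and -1.14 without SIRT6-inhibited 2, and in both cases, as without the low-count filter, its adjusted p-value was under 0.05. HSP90B1 had 0.309 and 0.242 counts for each GDF9 count in the control against 0.224 and 0.313 in the SIRT6-inhibited libraries, so this ratio overlapped while those to DNAJB1 and HSP90AB1 did not. ZP2, a zona pellucida glycoprotein gene, had 3709.6 and 4329.6 normalized CPM in the control against 3419 and 2785 in the SIRT6-inhibited libraries, with an unadjusted p-value of 0.0316 (edgeR quasi-likelihood test, Benjamini-Hochberg adjusted p = 0.510). Without control 2 the unadjusted p-value of ZP2 was 0.131, and without SIRT6-inhibited 2 it was 0.228. GDF9 and ZP2 were the 2 of 13 tested oocyte markers with an unadjusted p-value under 0.05 (15.4%, beside 9.05% of all tested genes), and both were lower (background 5.99%). The part of these markers in the chaperone result was not tested.

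Other genes of the same pathways were read from lists written from textbook knowledge. Of 50 genes of ER quality control and protein translocation, 13 were in the table and 12 were tested, with a median log2 fold change of -0.01. SEC62, which encodes a component of the translocation channel complex, was the 1 gene with an unadjusted p-value under 0.05, a share of 8.33% beside 9.05% of all tested genes. It had 107 and 200.2 normalized CPM in the control against 83.0 and 78.1 in the SIRT6-inhibited libraries, with no overlap and control 2 again highest. Its log2 fold change was -0.93 with a standard error of 0.35 and an unadjusted p-value of 0.0346 (edgeR quasi-likelihood test, Benjamini-Hochberg adjusted p = 0.512), and it was -0.41 without control 2 with an unadjusted p-value of 0.313. Of 21 further genes of the unfolded protein and integrated stress responses, 5 were in the table and tested, and 0 had an unadjusted p-value under 0.05. Their median of 1.12 is the value of 1 gene, CREB3, and the other 4 ran from -0.63 for ASNS to 1.91 for CREB3L4. CREB3L4 and SELENOS (1.55) had between 7 and 58 counts in a library. The most counted of the 5, SERP1, which encodes a small protein of the translocation site, had 1847 and 1719 normalized CPM in the control against 1637 and 1706 in the SIRT6-inhibited libraries. SERP1 was lower without overlap, with a log2 fold change of -0.09. CREB3, an ER-anchored transcription factor gene named, like SERP1, ASNS, SELENOS and CREB3L4, after its values were seen, had 18.6 and 16.3 normalized CPM in the control against 37.0 and 38.9 in the SIRT6-inhibited libraries, without overlap (edgeR quasi-likelihood test, Benjamini-Hochberg adjusted p = 0.637). Of 34 genes listed as heat-shock factors, co-chaperones, prefoldin subunits and other chaperones, 14 were in the table and 12 were tested, again 0 with an unadjusted p-value under 0.05 and with a median of -0.04. HSF1, the main heat-shock factor, named after its values were seen, had a log2 fold change of 0.19 with overlapping groups. This list is not all cytosolic, since its SERPINH1, named after its values were seen, encodes HSP47, a collagen chaperone of the ER that is not among the 13 ER members. SERPINH1 had 147 and 137 normalized CPM in the control against 179 and 197 in the SIRT6-inhibited libraries, higher without overlap, with a log2 fold change of 0.41 and a standard error of 0.22.

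The calls were compared across processing choices. Under 13 alternatives HSP90B1 had an unadjusted p-value under 0.05 in 13, PDIA3 and CANX in 12 each, PDIA4 in 10 and DNAJB1 in 1. The number of members with such a p-value was 1 without control 2, where HSP90B1 was left, and 9 without SIRT6-inhibited 1. The share over all tested genes moved as well, to 4.36% without control 2 and 13.2% without SIRT6-inhibited 1, from 9.05% with all libraries.

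**Figure D5:**
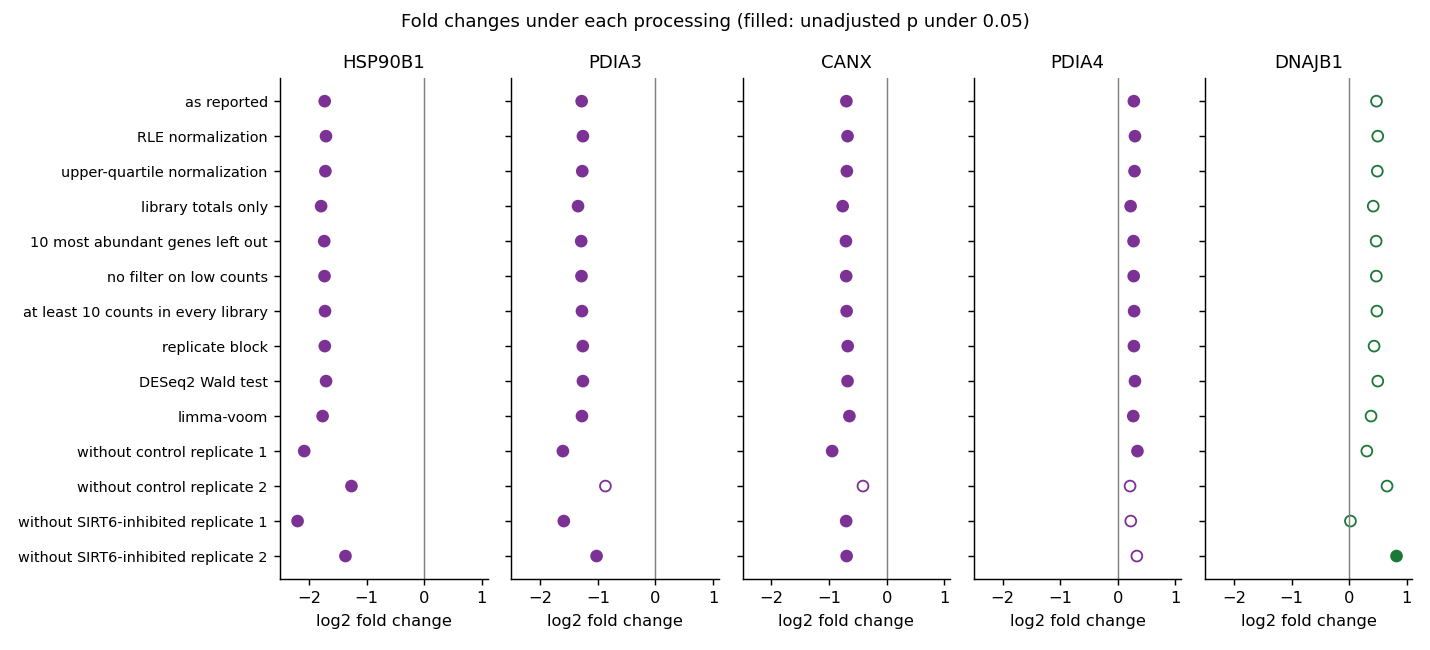
Log2 fold change (horizontal axes) of HSP90B1, PDIA3, CANX, PDIA4 and DNAJB1 as reported and under 13 alternatives (vertical axis), with filled points for an unadjusted p-value under 0.05. HSP90B1 stays between -2.20 and -1.26, PDIA3 is open without control 2 at -0.87, and DNAJB1 moves from 0.02 without SIRT6-inhibited 1 to 0.82 without SIRT6-inhibited 2.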

How the data were processed

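The authors deposited whole-number read counts for each gene symbol in 4 libraries, without normalization. The submitters' processing notes name TopHat2 2.0.13, Cufflinks 2.2.1, Cuffnorm and Cuffdiff and the builds susScr11 and mm10, without saying which step used which. The counting tool, annotation and strand setting are not given in the sources used here, so no coordinates or lengths were used. The labels name Smart-seq2 amplification and an NEBNext library kit, and the study's methods describe column extraction of RNA and random-primed libraries. All 46 member symbols, and 4299 of 4381 in the table, matched a RefSeq symbol or synonym of assembly Sscrofa11.1, used for names only.

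The software was DESeq2 1.42.0, limma 3.58.1, edgeR 4.0.16 and R 4.3.3. Genes were kept by filterByExpr (minimum count 10, minimum total 15), scaled by TMM (factors 0.966 to 1.04) and tested by edgeR's quasi-likelihood method, adjusting by Benjamini-Hochberg over all 2387 tested genes. Normalized CPM divide each count by its TMM-scaled library total. Standard errors were taken as the absolute log2 fold change over the root of the F value. The common biological coefficient of variation was 0.651. The fit was tested on simulated data. Libraries of a group differed by more than counting noise (chi-square per degree of freedom 38.6 for the controls and 28.8 for the SIRT6-inhibited libraries), which separately amplified libraries of 1 RNA could do too. They were counted as separate libraries as labelled.

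The members and lists were chosen with earlier results of these data known. Genes are named by a rule: HSP90B1, PDIA3 and DNAJB1, members with an unadjusted p-value under 0.05, the 12 members with the most counts, the main ER, cytosolic, stress-response and TRiC genes whatever their values, and genes of the other lists with an unadjusted p-value under 0.05. Alternatives were RLE and upper-quartile scaling, library totals only, removal of the 10 most abundant genes, no filter, a minimum of 10 counts in each library, a replicate block, DESeq2's Wald test, limma-voom and leaving out each library in turn, where a lone library is assumed to vary like the other group.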

Additional observations from a re-analysis of the deposited data

How the results depend on the processing

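HSP90B1, PDIA3, CANX and PDIA4 kept their direction under all 13 alternatives. Their groups did not overlap, so leaving out a library could hardly turn their direction, and keeping it is no test of it. Of 298 values of the 23 named genes other than HSP90B1, PDIA3 and DNAJB1, 276 kept their direction. Leaving out each library in turn, the number of members with an unadjusted p-value under 0.05 ranged from 1 to 9 (4 as reported), while the share over all tested genes ranged from 4.36% to 13.2% (9.05% as reported). PDIA3 ranged from -1.61 to -0.87 and DNAJB1 from 0.023 to 0.82. The cause of these changes was not tested. Among these genes, signs turned for DNAJA1, HSP90AB1, ATF4, XBP1, FKBP9, DDIT3, TCP1 and CCT7. DNAJA1 was -0.0069 with library totals only and -0.015 to 0.11 with a library left out. HSP90AB1 was 0.0088 with RLE, 0.00093 with upper-quartile scaling, 0.0086 in DESeq2 and -0.067 to 0.042 with a library left out. ATF4 was 0.0019 with RLE, 0.0018 in DESeq2, 0.038 in limma-voom and -0.24 to 0.23 with a library left out. XBP1 was -0.018 in limma-voom and -6.46 to 6.79 with a library left out. With a library left out, FKBP9 ranged from -0.11 to 0.33, DDIT3 from -0.16 to 0.55, TCP1 from -0.14 to 0.061 and CCT7 from -0.14 to 0.021. Libraries with the same replicate number share only a number. Their deviations from the group means had a correlation of -0.123 across genes, which are not independent replicates. The replicate block gave 5 members an unadjusted and 1 (HSP90B1) an adjusted p-value under 0.05, beside 176 (7.37%) and 6 of all tested genes, and HSP90AA1 was the member added (unadjusted p-value 0.0461). With the numbers crossed, added after seeing the data, the member counts were 7 and 1, beside 241 (10.1%) and 2 of all tested genes. The adjusted p-value of HSP90B1 was 0.00256 with the replicate block (GDF9 0.00398, reported as 0.469) and ranged from 3.82e-14 to 0.901 over the alternatives. Transcripts under 3 counts in a library could not be told from 0.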
